A study of Drosophila melanogaster with 2 samples.

Results

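Open chromatin of the small chromosome 4 and of the pericentromeric ends of 4 other chromosome arms was described in nuclei of the Drosophila mushroom body (MB). Overlapping ATAC-seq peaks of the 2 replicates were merged into regions, and a region was kept if it held a peak of either replicate. All regions on chromosome 4 were taken, together with those starting at or beyond 22 Mb on 2L, 22.9 Mb on 3L and 22 Mb on X, and below 4.2 Mb on 3R, in coordinates of release 6 of the genome. The right arm of chromosome 2 has no such window and stayed out of the comparison. This gave 357 of 17792 regions, of which 162 lay on chromosome 4 and 195 in the pericentromeric windows. They were compared with the 14050 regions on the rest of 2L, 3L, 3R and X, called the rest of the arms. The rule uses position and no fold enrichment or gene, but it was set with earlier results of these data known.

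Chromosome 4 and the DNA around the centromeres are packaged largely as heterochromatin, which carries methylated H3K9 and Heterochromatin Protein 1 and is rich in repeats. Genes are nevertheless transcribed there. The genes of chromosome 4 are bound by the chromosome-specific protein POF, and several essential genes of the pericentromeric heterochromatin depend on this environment for normal expression.

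ATAC-seq marks open chromatin by the cuts of the Tn5 transposase. It was performed on MB nuclei isolated by INTACT, in which anti-GFP beads capture nuclei with a GFP-tagged envelope protein, in 2 biological replicates of 1 condition, naive control flies. The flies carried the nuclear tag UAS-unc84::2xGFP over tubGal80(ts), a temperature-sensitive repressor of Gal4, and the driver R14H06-Gal4 over the mCherry RNAi insertion P{VALIUM20-mCherry.RNAi}attP2, a control with no fly target, in a w* background. Each sample pooled the heads of 50 to 60 flies, which were male for INTACT by the study's methods, and their age is not given. Nuclei were tagged through R14H06-Gal4, which is driven by an enhancer of rutabaga, so that the regions describe the neurons with this driver, averaged over their types, and no second condition or tissue was there for comparison.

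Both replicates had open chromatin at the ends of all 6 Kenyon cell genes listed, with 41 regions in or near them, 31 of which were found in both replicates, and strongest regions with a median of 6.32-fold and 6.31-fold. For comparison, 67.9% of protein-coding genes on the rest of the arms had a region within 500 bp of an end. Over the protein-coding genes there with a region in or near them, the medians were 3.90-fold and 3.88-fold. The Kenyon cell genes include rut, with 9 regions. Since the driver uses an enhancer of rut, this gene is not an independent marker of the nuclei captured. Genes of other head cells had regions as well. Of 3 glial genes, moody had 3.18-fold and 2.86-fold at an end in replicates 1 and 2, Gs2 had 3 regions inside the gene in both replicates, up to 2.66-fold, and repo had a single weak region of replicate 1 alone (1.38-fold). Of 3 photoreceptor genes, trp had a region near an end (2.86-fold and 2.67-fold) and ninaE and ninaC had 0 regions, as did both muscle genes. The part of other head cells in the results was not tested. Replicate 1 had 17942 peaks and replicate 2 had 15248. By the study's methods, more reads remained in the replicate with more peaks. The files hold peaks and no read counts, so that no value can be given with the reads behind it, and the intervals below cover counting error only.

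Chromosome 4 had nearly as many open regions per Mb as the rest of the arms, and the pericentromeric windows had far fewer. There were 122.8 regions per Mb on chromosome 4 (exact 95% Poisson interval 104.6 to 143.2) and 15.8 in the pericentromeric windows (13.7 to 18.2), against 148.3 on the rest of the arms (145.8 to 150.7). None of these intervals overlapped. Open regions covered 11.6% of chromosome 4 and 1.37% of the pericentromeric windows, against 13.3% of the rest of the arms. These values use the whole assembled length, repeats included, whereas reads with several matching loci were taken out before peak calling. The part of repeated sequence in these differences was not tested.

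The 4 windows differed from each other. The X window had 35.1 regions per Mb and the 2L window 33.9, whereas the 3L window had 13.3 and the 3R window 5.71. On the rest of the same arms the values were 114 on X, 151 on 2L, 166 on 3L and 159 on 3R, so that the rest of the arm exceeded its window 3.24-fold on X and 27.9-fold on 3R. The sparse windows were also poor in genes. The windows held 20.4 annotated genes per Mb, against 144 on the rest of the arms, and chromosome 4 held 86.4. Per gene, the values lay closer together, with 1.42 regions on chromosome 4 and 0.774 in the windows, against 1.03 on the rest of the arms.

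**Figure D1:**
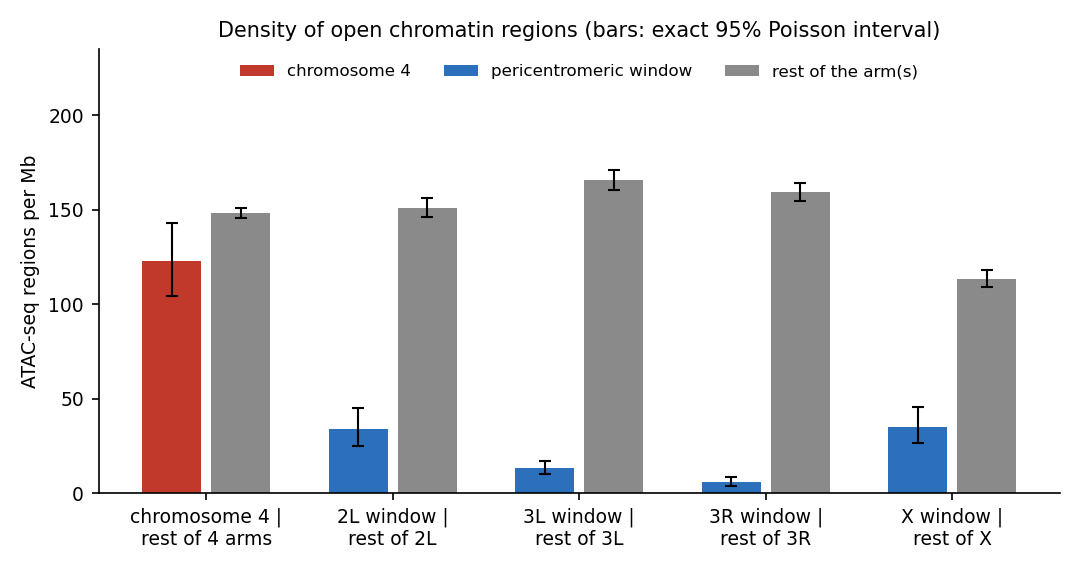
Open chromatin regions per Mb (bars, with exact 95% Poisson intervals) on chromosome 4 and in each pericentromeric window, each beside the rest of the arm or arms. Chromosome 4 stands at 122.8 beside 148.3, and the 4 windows stand between 5.71 and 35.1, all below the rest of their arm.

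The change in density along the arms was abrupt on chromosome 3. On 3L, each 0.5 Mb bin of the 5 Mb nearest to the centromere had between 2 and 11 regions, and the next bin, which holds the window edge, had 54. On 3R, the first 3095 kb of the assembled arm, 73.7% of the window, held 0 regions, and the bin with the window edge had 64. The gene counts followed the same course, with 1 to 15 genes per bin within the 3L window and 0 to 5 within the 3R window. On 2L the step came outside the window. The bin just past it held 28 regions and 170 genes, the highest gene count of the bins plotted. The part of repeated genes in this bin was not tested. Along chromosome 4 the regions were spread more evenly, with 7 to 22 in each 100 kb bin.

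**Figure D2:**
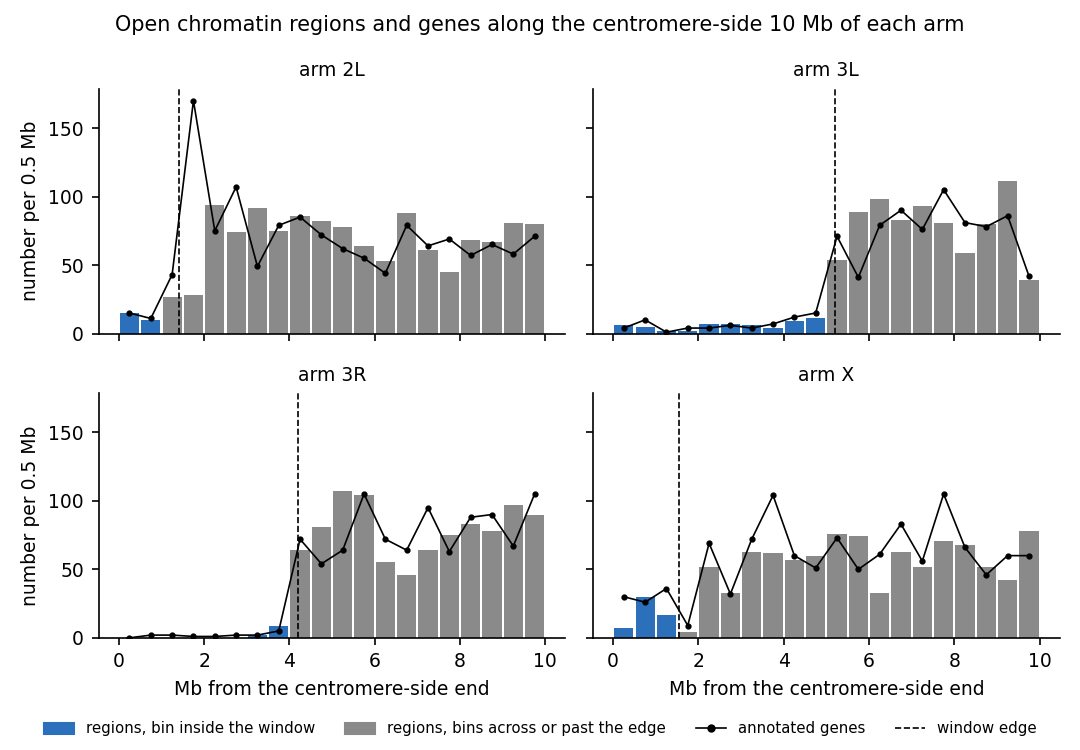
Number of open chromatin regions (bars) and annotated genes (black line) per 0.5 Mb along the centromere-side 10 Mb of 2L, 3L, 3R and X, by distance from the centromere-side end of the assembled arm. Blue bars lie within the pericentromeric window, the dashed line is its edge, and on 3R the bars are absent over the first 3 Mb.

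Regions of chromosome 4 and of the pericentromeric windows were found in both replicates as often as others. On chromosome 4, 139 of 162 regions (85.8%, 95% Wilson interval 79.6% to 90.3%) held a peak of each replicate, as did 160 of 195 in the pericentromeric windows (82.1%, 76.1% to 86.8%), against 82.2% (81.6% to 82.9%) on the rest of the arms and 82.4% over all regions. The intervals overlap. Where merging required a reciprocal overlap of at least 50%, chromosome 4 minus the rest was 8.65 percentage points (1.74 to 14.5). Regions of a single replicate came almost all from replicate 1, with 22 against 1 from replicate 2 on chromosome 4 and 34 against 1 in the windows, against 2378 and 119 on the rest of the arms. Those of replicate 1 alone were weak and short throughout, with a median fold enrichment of 1.32 on chromosome 4 and 1.29 in the windows, against 1.31 on the rest of the arms, and median widths of 180 bp and 155.5 bp, against 170 bp.

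A region was next placed relative to genes, using either end of a gene because the gene table lists no strand. On chromosome 4, 56.2% of regions (95% Wilson interval 48.5% to 63.6%) covered or lay within 500 bp of a gene end, and in the pericentromeric windows 47.7% did (40.8% to 54.7%), against 44.5% (43.7% to 45.3%) on the rest of the arms. With this distance the chromosome 4 share differed from the rest of the arms beyond counting error and that of the windows did not. Both calls depended on the setting. Counting only regions that cover a gene end, chromosome 4 minus the rest was 5.46 percentage points (-1.82 to 13.2), and with the edges 500 kb farther from the centromere the windows minus the rest was 6.02 points (0.994 to 11.0). Regions outside any annotated gene were more frequent in the windows, at 24.6% (19.1% to 31.1%), than on chromosome 4 (14.8%) or the rest of the arms (15.5%, 14.9% to 16.1%), while genes spanned 46.6% of the windows and 80.7% of chromosome 4, against 73.0% of the rest of the arms. The region with the farthest gene end of all members lay in the 3R window, 168098 bp from it.

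The fold enrichment, the ratio of the signal at the summit to the local background, was higher at gene ends of the pericentromeric windows and of chromosome 4 than at those of the rest of the arms. Among regions with a peak of both replicates that cover a gene end, the 63 on chromosome 4 had medians of 4.60 and 4.50 in replicates 1 and 2, and the 71 in the windows had 5.16 and 5.26, against 3.58 and 3.50 for 4761 regions on the rest of the arms. The differences had the same sign in both replicates and were larger than the difference between the replicates. In the 3R window the median of 9 such regions was 5.62 and 6.46, against 3.66 and 3.61 on the rest of 3R. The 27 regions of the 3L window had 5.49 and 5.85, against 3.63 and 3.57, and the 17 of the 2L window had 4.88 and 5.08, against 3.56 and 3.51. The order was the same on X, at a smaller difference, with 4.10 and 4.29 for 18 regions of the window, against 3.42 and 3.26.

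Away from gene ends the medians lay closer together. The other regions with both replicates had a median fold enrichment of 2.36 and 2.28 on chromosome 4 and of 2.06 and 2.04 in the windows, against 2.21 and 2.08 on the rest of the arms. Over all regions, the median was 2.70 in replicate 1 and 2.97 in replicate 2 on chromosome 4 and 2.50 and 2.92 in the windows, against 2.32 and 2.59 on the rest of the arms. The difference exceeded that between the replicates on chromosome 4 but not in the windows, where it also rested on the edges. With the edges 500 kb nearer to the centromere, the median over all their regions was no longer above that of the rest (mean log2 ratio -0.021, against 0.14 with the edges as given), while that over regions at gene ends stayed above it (0.56 and 0.55). A stronger signal at the summit and a lower local background cannot be told apart from the fold enrichment.

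**Figure D3:**
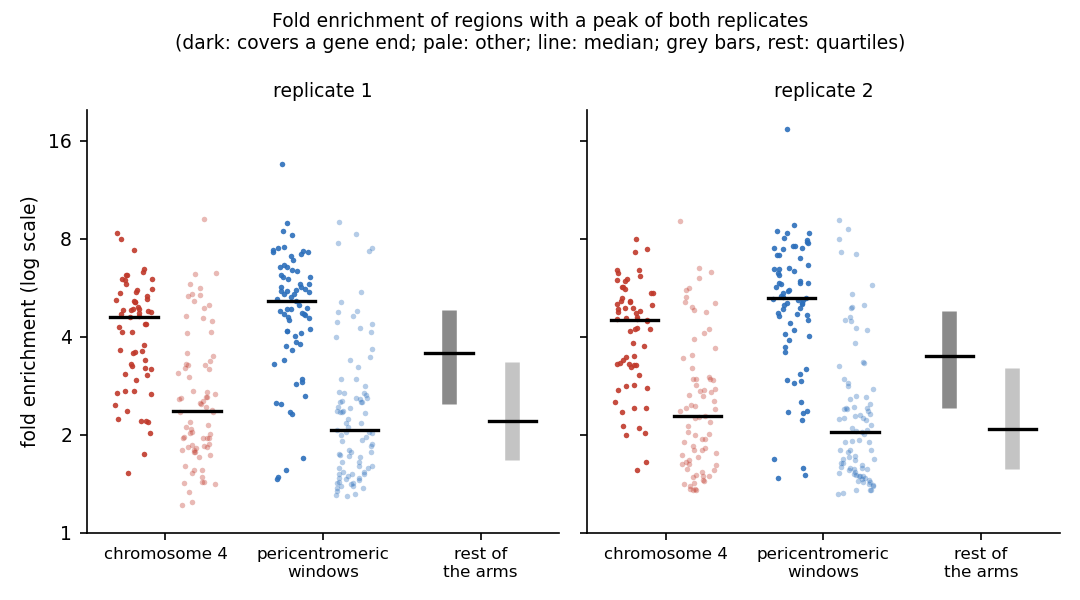
Fold enrichment (log axis) of each region with a peak of both replicates on chromosome 4 (red) and in the pericentromeric windows (blue), by replicate, split into regions that cover a gene end (dark) and others (pale), with medians as black lines. For the rest of the arms, grey bars give the quartiles, and the gene-end medians of 4.60 and 5.16 in replicate 1 lie above its 3.58.

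The upper part of the distribution was fuller as well. Regions with both replicates on the rest of the arms had an upper quartile of 4.10-fold in replicate 1. On chromosome 4, 38.1% of such regions (95% Wilson interval 30.5% to 46.4%) exceeded this value, and in the windows 41.3% did (33.9% to 49.0%). In replicate 2, above the upper quartile of 4.03, the shares were 36.7% and 42.5%. This did not extend to the very highest regions of chromosome 4. Among the 100 regions with the highest mean fold enrichment, 1 lay on chromosome 4 and 3 in the windows, which held 0.948% and 1.09% of all regions with both replicates.

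Most genes of chromosome 4 had open chromatin at an end, and fewer than 50% of the pericentromeric genes did. A region within 500 bp of a gene end was found for 93 of 114 genes on chromosome 4 (81.6%, 73.5% to 87.6%) and 109 of 252 in the windows (43.3%, 37.3% to 49.4%), against 8577 of 13660 on the rest of the arms (62.8%, 62.0% to 63.6%). Protein-coding genes alone gave 74 of 80 (92.5%), 79 of 152 (52.0%) and 7355 of 10830 (67.9%). The 152 include 21 repeated genes of the X window, described below, none with a region. The share of protein-coding genes without these repeats was not computed. Among RNA genes, which can share a region with an overlapping gene, antisense RNA genes had such a region in 9 of 10 cases on chromosome 4 (59.6% to 98.2%) and 2 of 4 in the windows, against 62.3% (57.4% to 67.0%) on the rest of the arms. For lncRNA genes it was 7 of 14 on chromosome 4 (26.8% to 73.2%) and 18 of 47 in the windows (25.8% to 52.6%), against 38.9% (36.5% to 41.3%), and these intervals all overlap within each kind of gene.

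Gene length differed between the sets and was therefore set beside the share. Protein-coding genes had a median length of 10090 bp on chromosome 4 and 4263 bp in the windows, against 2161 bp on the rest of the arms. Within length classes, the chromosome 4 shares stayed above those of the rest of the arms, but no longer beyond counting error. From the shortest to the longest class, chromosome 4 had only 28, 45 and 41 genes. Among genes of 10 kb and over, 38 of 41 on chromosome 4 (92.7%, 80.6% to 97.5%) and 33 of 55 in the windows (60.0%, 46.8% to 71.9%) had a region at an end, against 89.2% (87.6% to 90.7%) on the rest of the arms. From 2 to 10 kb the shares were 84.4% (71.2% to 92.3%) and 65.5%, against 77.4%. Under 2 kb they were 60.7% and 28.2%, against 48.9%. The short window genes include 21 repeated genes of the X window, described below, none with a region. The pericentromeric share was lowest in the short class, and the intervals of the windows and the rest of the arms did not overlap in the short and the long class.

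**Figure D4:**
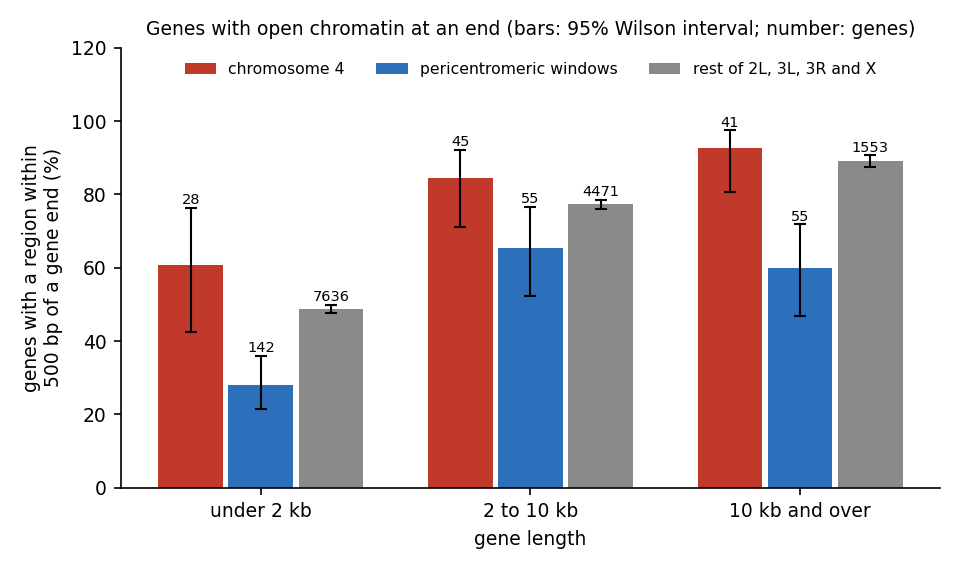
Share of genes with an open chromatin region within 500 bp of a gene end (bars, with 95% Wilson intervals), by gene length, for chromosome 4, the pericentromeric windows and the rest of the arms, with the number of genes above each bar. The pericentromeric genes have the lowest share in each length class, 28.2%, 65.5% and 60.0%.

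The bodies of long genes were poor in open regions in the windows. Genes of 10 kb and over held 1.11 regions per 10 kb on chromosome 4 and 0.175 in the windows, against 1.59 on the rest of the arms. Without regions that cover an end of the gene, the values were 0.699 and 0.118, against 1.31. The rates pool the genes, so that the longest weigh most. The part of repeated sequence in these rates was not tested. In genes of 2 to 10 kb, with regions at ends counted, the windows held 2.04 and the rest of the arms 2.39. Of 16 window genes of 50 kb and over, 5 had 0 regions and the median was 1, against 2 of 244 such genes without a region and a median of 11 on the rest of the arms. Myo81F, which codes for a myosin, spans 1965857 bp of 3R from 567076 to 2532932 and had 0 regions, the nearest lying 562389 bp away. Pzl, a Piezo-like channel gene of 709 kb, had 1 weak region (1.58-fold and 1.71-fold in replicates 1 and 2). In several others the strong region sat at an end and the body was nearly empty. Snap25, a SNARE protein of synaptic vesicle fusion, spans 225 kb of 3L. It had a region at one end, from 24073533 to 24074846, with 6.53-fold and 7.47-fold enrichment, and a weak one inside, with 1.44-fold and 1.43-fold. Other long genes had more regions or had their strongest region inside. On X, lncRNA:CR44997 had 11 regions over 140 kb, and CG42346 had a region inside the gene with 4.76-fold and 4.47-fold. On 3L, lncRNA:CR46482 had 4 regions over 60.1 kb, none near an end, with 4.51-fold and 4.66-fold at the strongest.

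The transcriptional regulators of chromosome 4 included its strongest regions. All 16 genes listed had a region of both replicates within 500 bp of an end, as did 91.3% of all 80 protein-coding genes of the chromosome, and they had 49 gene and region pairs. Of their 48 distinct regions, 17 covered an end of a listed gene and 31 did not. Some of the 31 covered an end of a gene not listed. Among all regions of chromosome 4, 40.1% covered an end of any gene. The median fold enrichment of the strongest region per gene was 5.28 in replicate 1 and 5.20 in replicate 2, against 4.84 and 4.85 over the 75 protein-coding genes of chromosome 4 with a region. Sox102F, a SoxD family factor, had the highest region of the chromosome, inside the gene from 806948 to 808677, with 9.21-fold and 9.05-fold enrichment. It lay 6512 bp from the nearest gene end, and a second region across a gene end had 4.62-fold and 4.47-fold.

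The Pax6 homologues eyeless and twin of eyeless, which are used as Kenyon cell markers, lay among the genes of chromosome 4 with the most regions. At ey (697689 to 721173), 6 regions were found, 5 of them in both replicates. The strongest, from 703656 to 705187, was inside the gene, 5967 bp from its nearest end, with 6.27-fold and 6.49-fold enrichment, and was followed by another internal region from 712675 to 714300 with 4.11-fold and 3.95-fold. The regions at the ends of ey were weaker, with 3.25-fold and 3.31-fold at one end and 2.70-fold and 2.41-fold at the other. At toy the order was the reverse. Its strongest region, from 989094 to 990501, covered a gene end with 8.01-fold and 7.99-fold enrichment, and the other 4 had at most 2.43-fold.

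Other regulators also had their strongest region inside the gene. The Pax2 homologue shaven (sv) had 3 regions, with 5.80-fold and 6.07-fold enrichment at an internal one from 1097697 to 1098690 and 2.24-fold to 3.28-fold at the ends. The zinc-finger homeodomain gene zfh2 had 5 regions, the strongest internal from 507209 to 508773 with 5.15-fold and 4.85-fold. At pan, the TCF factor of Wnt signalling, 6 regions were spread over 44.9 kb and the strongest covered a gene end with 4.75-fold and 4.72-fold. Single regions at an end marked NfI (6.20-fold and 5.92-fold), the forkhead gene fd102C (5.23-fold and 5.25-fold) and pho, which codes for a DNA-binding protein of Polycomb silencing (3.57-fold and 3.50-fold). The lowest of the strongest regions belonged to Mitf, a regulator of lysosomal genes, with 2.47-fold and 2.78-fold, and to ci, the effector of Hedgehog signalling, with 3.18-fold and 2.83-fold.

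The 14 neuronal and synaptic genes listed all had a region of both replicates within 500 bp of an end, against 91.3% of all protein-coding genes of chromosome 4. Their 26 gene and region pairs had medians of the strongest region of 4.78-fold and 4.56-fold in replicates 1 and 2, close to the chromosome's background. Highest was mGluR, the metabotropic glutamate receptor, with a region across a gene end from 936274 to 937751 (7.38-fold and 7.30-fold). At unc-13, which primes synaptic vesicles, 4 regions lay within the gene, and the strongest of them were internal with 5.43-fold and 5.57-fold and with 5.35-fold and 5.60-fold. Cadps, which acts in dense-core vesicle release, had 4 regions with 4.88-fold and 4.54-fold at the strongest. The Ephrin ligand and its receptor Eph had 1 region each, with 4.71-fold and 5.04-fold and with 4.28-fold and 4.56-fold. Of the semaphorin receptors, PlexB had 5.15-fold and 5.70-fold, and PlexA was the lowest of the list with 2.21-fold and 2.03-fold.

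The 3 ligand genes of the TGF-beta family on chromosome 4 all had a region of both replicates within 500 bp of an end. Over all protein-coding genes of chromosome 4 the share was 91.3%. Actbeta, an Activin, had the strongest, with 6.04-fold and 6.02-fold, and maverick (mav) and myoglianin (myo) had 4.73-fold and 4.25-fold and 3.60-fold and 3.74-fold. Among the 12 general cell genes, 11 had a region of both replicates near an end, against the same 91.3% over all protein-coding genes. The DNA repair gene Tdg shared the strongest (6.19-fold and 6.15-fold) with Pur-alpha, since the region from 556912 to 558970 covered an end of both. Gyf had 5.57-fold and 6.43-fold, and the ribosomal protein gene RpS3A 3.65-fold and 3.27-fold. The exception was bent (bt), the titin-like gene of muscle. It had only a weak region of replicate 1 alone (1.53-fold), and the stretch of 52629 bp before this region, from 722596 to 775224, was the longest without a region on chromosome 4.

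**Figure D5:**
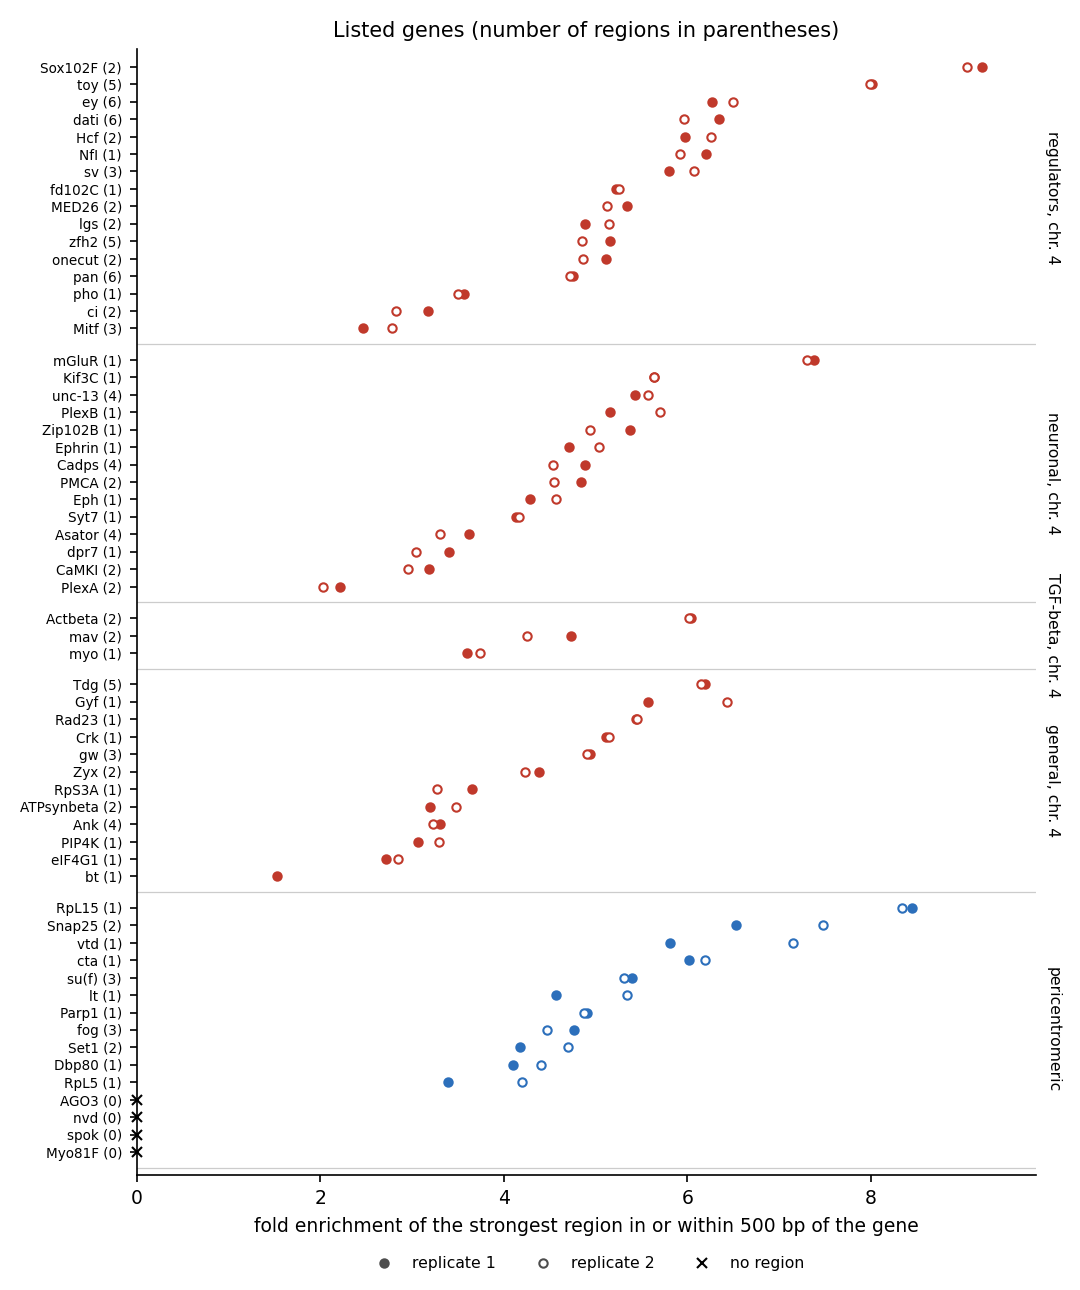
Fold enrichment of the strongest open chromatin region in or within 500 bp of each listed gene, in replicate 1 (filled) and replicate 2 (open), for chromosome 4 (red) and the pericentromeric windows (blue), with the number of regions in parentheses. Sox102F, at 9.21 and 9.05, is highest, bt has a value in replicate 1 alone, and the crosses at 0 mark AGO3, nvd, spok and Myo81F, which had no region.

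The protein-coding genes of chromosome 4 without a region in or near them were 5 of 80. They were Gat, a GABA transporter, RhoGAP102A, JYalpha, which codes for a subunit of the sodium pump, CG32006 and CG33521. A region was thus found for 93.8% of the 80, against 69.7% of 10830 protein-coding genes on the rest of the arms. JYalpha lies near the first base of the assembled chromosome, within a stretch of 42593 bp without a region that also holds 3 pseudogenes.

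In the pericentromeric windows, 65 of 152 protein-coding genes had no region in or near them. Of the 152, 57.2% had a region, against 69.7% of 10830 on the rest of the arms. A region of both replicates lay near an end of 51.3% of all 152 protein-coding genes of the windows. Of 15 listed genes of pericentromeric heterochromatin within the windows, 11 had one. Their strongest regions had medians of 4.91 and 5.31 in replicates 1 and 2, against 5.02 and 5.21 over the 87 protein-coding genes of the windows with a region. By arm, the genes without a region were 15 of 37 on 2L, 12 of 42 on 3L, 4 of 14 on 3R and 34 of 59 on X. Those on X include the 21 repeated genes described below. Among the listed genes RpL15, a ribosomal protein gene on 3L from 27267255 to 27268445, had the strongest, with 8.45-fold and 8.34-fold, followed by Snap25 and by vtd, the Rad21 subunit of cohesin, with 5.81-fold and 7.15-fold. On 2L, cta, a G-protein alpha subunit, had 6.02-fold and 6.19-fold, and light (lt), which acts in transport to lysosomes, had 4.57-fold and 5.34-fold. Of the histone H3K4 methyltransferases, Set1 lies in the 3L window. It had 2 regions, with 4.17-fold and 4.69-fold enrichment at one 57 bp beyond a gene end. That region covered an end of the overlapping gene MED21, and the region inside Set1 had 2.71-fold and 2.62-fold. A single region at an end was all that was found for Dbp80, an RNA helicase gene of 143 kb (4.10-fold and 4.40-fold), and for Parp1, the poly(ADP-ribose) polymerase gene of 126 kb (4.91-fold and 4.87-fold). On X, su(f), which acts in mRNA 3' end processing, had 5.40-fold and 5.31-fold at an end. The gastrulation ligand gene fog overlaps CG42346. Its strongest region, inside the gene with 4.76-fold and 4.47-fold, was the same one as given for CG42346 above. The listed genes with 0 regions were AGO3, which acts in the piRNA pathway of the germ line, nvd and spok, which act in ecdysone synthesis in the prothoracic gland, and Myo81F.

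The strongest regions of the windows lay on all 4 arms, and 7 of the 10 highest covered a gene end. The highest of them and of all 17792 regions covered an end of 28SrRNA-Psi:CR45859, a pseudogene of rRNA on X (23216592 to 23217557), where the enrichment was 13.6-fold and 17.4-fold in replicates 1 and 2. It was the only one of 16 rRNA genes and pseudogenes of the X window with a region over it. Reads with several matching loci had been taken out before peak calling, and the part of repeated copies in this value was not tested. Without this region the mean log2 ratio of the windows to the rest of the arms was 0.14, as with it.

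On 2L, 2 regions of tiptop (tio), a zinc-finger factor of the teashirt family, stood among the 10 highest. One lay inside the gene from 22024087 to 22025124 with 8.99-fold and 9.16-fold enrichment, and the other across a gene end from 22018519 to 22019871 with 8.21-fold and 8.44-fold. Also on 2L, a region inside CG3651 had 8.26-fold and 8.58-fold. On 3L the highest covered an end of lncRNA:CR45758, from 22960168 to 22961475, with 8.94-fold and 8.80-fold. By the mean of the replicates, the highest on 3R covered an end of Tim17b, a subunit of mitochondrial protein import, with 7.54-fold and 8.04-fold. In replicate 1 alone a region inside CG42402 was higher (7.79-fold, and 7.19-fold in replicate 2). The next by the mean lay in no gene, from 3789268 to 3790541, with 7.34-fold and 7.99-fold, 36915 bp from the nearest gene end.

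The windows also held long stretches with 0 regions. The longest of each window were the 3095 kb of 3R described above, 860 kb of 3L, 373 kb of X and 274 kb of 2L. A second stretch on 3L spanned 578 kb, more than the longest within the X or the 2L window. The X stretch is cut by the window edge, since the nearest region outside ended at 21630791. The X stretch ran from the window edge to the first region at 22373376 and held 21 protein-coding genes, from CG40813 to CG41562, none with a region. Of these, 19 have the same length of 876 bp. Without these repeated genes, the share of window genes with a region at an end minus that of the rest of the arms was -15.6 percentage points, against -19.5 points with them. The part of repeats in these empty stretches was not tested.

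Regions beside the window edges did not differ in a common direction. The nearest inside and the nearest outside had 8.21-fold and 2.04-fold enrichment in replicate 1 on 2L, 4.81-fold and 3.30-fold on 3L, 2.86-fold and 1.82-fold on 3R, and 2.97-fold and 4.98-fold on X. Replicate 2 gave the same order on each arm. On X the edge fell between regions starting at 22373376 inside and 21628996 outside.

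The replicates gave nearly the same fold enrichment over these regions. On the log2 scale, Pearson's r between the replicates was 0.986 over 139 regions of chromosome 4 and 0.989 over 160 of the windows, against 0.987 over 11553 of the rest of the arms. These are correlations across regions, which are not independent and share their libraries. Replicate 2 was the higher in 60.8% of regions in the 3L window (47.1% to 73.0%), against 33.5% on the rest of 3L (31.9% to 35.2%). In the other windows the intervals overlapped those of the rest of the arm, with 54.5% of 22 regions on 3R (34.7% to 73.1%), 50.0% on 2L (35.2% to 64.8%) and 31.9% on X (20.4% to 46.2%), against 34.2%, 34.3% and 28.6%. On chromosome 4 the share was 36.7%. Single regions that differed most between the replicates were 1 on X from 22433031 to 22433163 (3.39-fold in replicate 1 and 4.93-fold in replicate 2), only 133 bp wide, and 1 inside CG11360 on chromosome 4 (3.21-fold and 2.47-fold).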

How the data were processed

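ATAC-seq was performed on INTACT-isolated MB nuclei in 2 replicates. Trimming (Trimmomatic 0.39), alignment to release 6 of the genome (Bowtie2 2.4.1) and peak calling for each replicate (MACS2 2.1.2) were done by the authors, who also shifted reads for the transposase offset and dropped duplicates and reads with several matching loci or from mitochondria or scaffolds. More reads remained in replicate 1 than in replicate 2. For each peak they deposited a fold enrichment (a ratio to local background), a score, a −log10 p-value and a −log10 q-value (lowest 2.02 and 2.06 in replicates 1 and 2), and the summit offset. A blacklist filter is not stated for these peaks.

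Peaks overlapping by at least 1 bp were merged. The highest peak of a replicate gave a region's fold enrichment. Arm ends were the last annotated gene or peak. Gene positions came from a RefSeq table of the same release, without strand or transcripts, so that either gene end stood in for the TSS. With 1 condition no test between groups was made. Shares have 95% Wilson intervals and densities exact Poisson intervals. Fold medians were called different where the sign was the same in both replicates and the difference exceeded that between them. Named genes were those of lists for chromosome 4 (regulators, neuronal, TGF-beta, general) and for pericentromeric heterochromatin, those at the 10 strongest regions of each set, at the window edges, and in the longest stretches without a region. Others were chosen after their values were seen, as were all genes named for lacking a region outside the lists. The listed names Thd1 and Parp matched Tdg and Parp1 by synonym, and Nipped-A and rl lie outside the windows. Members and lists were chosen with earlier results of these data known. Region sequences and motifs were not analysed here. The merging code was tested on simulated data. Python 3.11.15 was used with pandas 2.3.3, numpy 2.4.6, statsmodels 0.14.6, scipy 1.17.1 and matplotlib.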

Additional observations from a re-analysis of the deposited data

How the results depend on the processing

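Among 121 values under another setting, 102 stayed within the interval, the replicate spread or 1.5 times the reported value, 18 moved and 1 reversed. Of these alternatives, 7 were added after the data had been seen. The number of window regions was 118 with the edges 500 kb nearer to the centromere and 387 with them 500 kb farther away. The density ratio of the windows to the rest of the arms was 0.181 with the edges farther away and 0.167 per bp of gene span, against 0.107. With a reciprocal overlap of at least 50%, the share of regions with both replicates exceeded that of the rest by 8.65 percentage points on chromosome 4 and by 5.74 in the windows, and the chromosome 4 interval of 1.74 to 14.5 points then excluded 0. The share of regions near a gene end, minus the rest, lost its call on chromosome 4 when only regions covering an end were counted (5.46 points) and gained one in the windows with the edges farther away (6.02 points). The mean log2 ratio of the median fold enrichment on chromosome 4 to that of the rest, 0.21, was 0.22 with reciprocal overlap and with equal numbers of peaks, 0.23 at a −log10 q of at least 5, 0.18 at 10 and 0.34 at gene ends, and with 1 replicate left out 0.22 to 0.23. In the windows it was 0.14, and 0.36 at a −log10 q of at least 10, 0.55 at gene ends, 0.56 and 0.40 at gene ends with the edges nearer and farther, 0.12 to 0.20 with 1 replicate left out, and −0.021 with the edges nearer, the reversal. The cause was not tested. With 1 replicate left out, the share with both replicates has no value. The lists hold no reads, so that no depth limit on a missing region could be given. No paired analysis was possible because the samples form a single group.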
